A study of Mus musculus with 10 samples.

Results

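The 10 genes described here belong to the fibroblast growth factor (FGF) system and were followed in hippocampal RNA of mice after subarachnoid hemorrhage (SAH), the entry of arterial blood into the space around the brain. They are 4 secreted ligands (Fgf1, Fgf2, Fgf9 and Fgf18), the 4 receptors (Fgfr1, Fgfr2, Fgfr3 and Fgfr4) and 2 carrier proteins (Fgfbp1 and Fgfbp3), 10 of the 24391 gene names counted in each mouse. They were selected by name, with the levels of genes in SAH and control mice of this same series already known. Differences between SAH and the other groups are therefore given for these 10 genes as a description. No p-value is given for them, counts past a threshold stand beside the share of all genes as a description too, and only Sham against Naive is read as a test.

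The mice were male C57BL/6J animals aged 10 to 14 weeks, and each gave 1 library from both whole hippocampi, taken 4 days after surgery in the operated mice. In SAH mice (n = 4, mice 1 to 4) a filament was pushed through the wall of the circle of Willis on a single side, and an animal was kept only if its cerebral blood flow dropped far enough at the perforation. In Sham mice (n = 3, mice 5 to 7) the same operation stopped short of piercing the artery, and Naive mice (n = 3, mice 8 to 10) had no operation. Sham and Naive mice together form the control (n = 6). All groups were of this strain and sex. Because only males and a single day were sampled, and the hippocampus lies away from the bleeding, the data describe the tissue at that time and place only.

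FGF ligands are secreted proteins that dimerize receptor tyrosine kinases on the cell surface. They need heparan sulfate, a sulfated sugar chain of the matrix and the cell surface, both to stay near the cell that made them and to bind the receptor. The FGF-binding proteins are secreted carriers that take ligands such as FGF1 and FGF2 off this store, and an active receptor switches on the RAS and MAP kinase cascade together with its own brakes, the Sprouty proteins and the phosphatase DUSP6. In the brain Fgfr3 marks astrocytes, Fgfr2 is carried by astrocytes and oligodendrocytes, and Fgfr1 is abundant in hippocampal neurons.

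Between 19743388 and 27254655 read pairs per mouse were counted, and levels are given as CPM (counts relative to the size of the library, with the TMM correction for its make-up). Marker genes of hippocampal neurons summed to 884.0 to 927.0 CPM in SAH and 844.3 to 944.8 CPM in control mice in the labelled tissue. Of the 11 meningeal fibroblast markers 9 rose with SAH, of the 8 reactive astrocyte markers 5 of the 6 tested rose, and all 10 oligodendrocyte markers fell, by edgeR's quasi-likelihood test at an adjusted p under 0.10. By the same test 3 of 10 endothelial, 4 of 10 mural and 4 of 10 microglial markers rose and 1 of 6 interneuron markers fell. Of 9 neuronal, 8 hippocampal neuron and 5 thalamic markers 0 passed (0, 3 and 0 at an unadjusted p under 0.05, and 0, 1 and 0 by DESeq2). Of the 9 blood leukocyte markers 0 had enough counts to be tested. Their sum was 1.26 to 2.90 CPM in SAH mice, highest in SAH mouse 1, and 0.360 to 1.17 CPM in control mice, so the groups did not overlap, and the part of these cells in the results below was not tested. Of the 5 erythroid names 4, the globins, were at 0 in every mouse, and the single one tested did not pass. Reads that matched several places were not counted, so a 0 here does not show that red-cell RNA was absent. The 11 choroid plexus markers summed to 1209 CPM in SAH mouse 3, 843.6 CPM in SAH mouse 4 and 815.2 CPM in Sham mouse 7, against 33.21 to 201.1 CPM in the other 7 mice, and 0 of them passed (2 at an unadjusted p under 0.05, 0 by DESeq2). These 3 libraries stand apart, and values without them are given for Fgfbp1, Fgfr2, Fgf2 and the pathway genes past the threshold. The marker lists were chosen with earlier results of these data known, so their counts are a description. In such bulk tissue, fewer cells of a type and less RNA per cell cannot be told apart.

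At day 4 the widest difference among the members was in a carrier. Fgfbp1, scarce in control hippocampus at 0.351 ± 0.150 CPM (SD, n = 6), stood at 1.73 ± 1.35 CPM (SD, n = 4) in SAH, a fitted 4.89-fold higher level. The other 8 members with enough counts to be fitted lay within 0.25 on the log2 scale of control in either direction. The next widest was Fgfr2, at -0.24 (95% interval -0.44 to -0.05). Fgfr4 had at most 5 counts in any mouse and was removed by the filter on low counts. Of the 9 members fitted, 1 (Fgfbp1) was past the adjusted p of 0.10 in the higher direction, where 3.13% of all 14993 genes were, and 0 were past it in the lower direction, where 1.54% were. By unadjusted p under 0.05 there were 2 members, beside 17.0% of all genes, and DESeq2 called 1, where it called 632 genes higher and 398 lower of the 14993. Since this contrast was known when the members were picked, nothing is read from these counts. The median log2 difference of the 9 members was -0.05 and their median size 0.13, beside -0.002 and 0.081 over all genes.

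**Figure D1:**
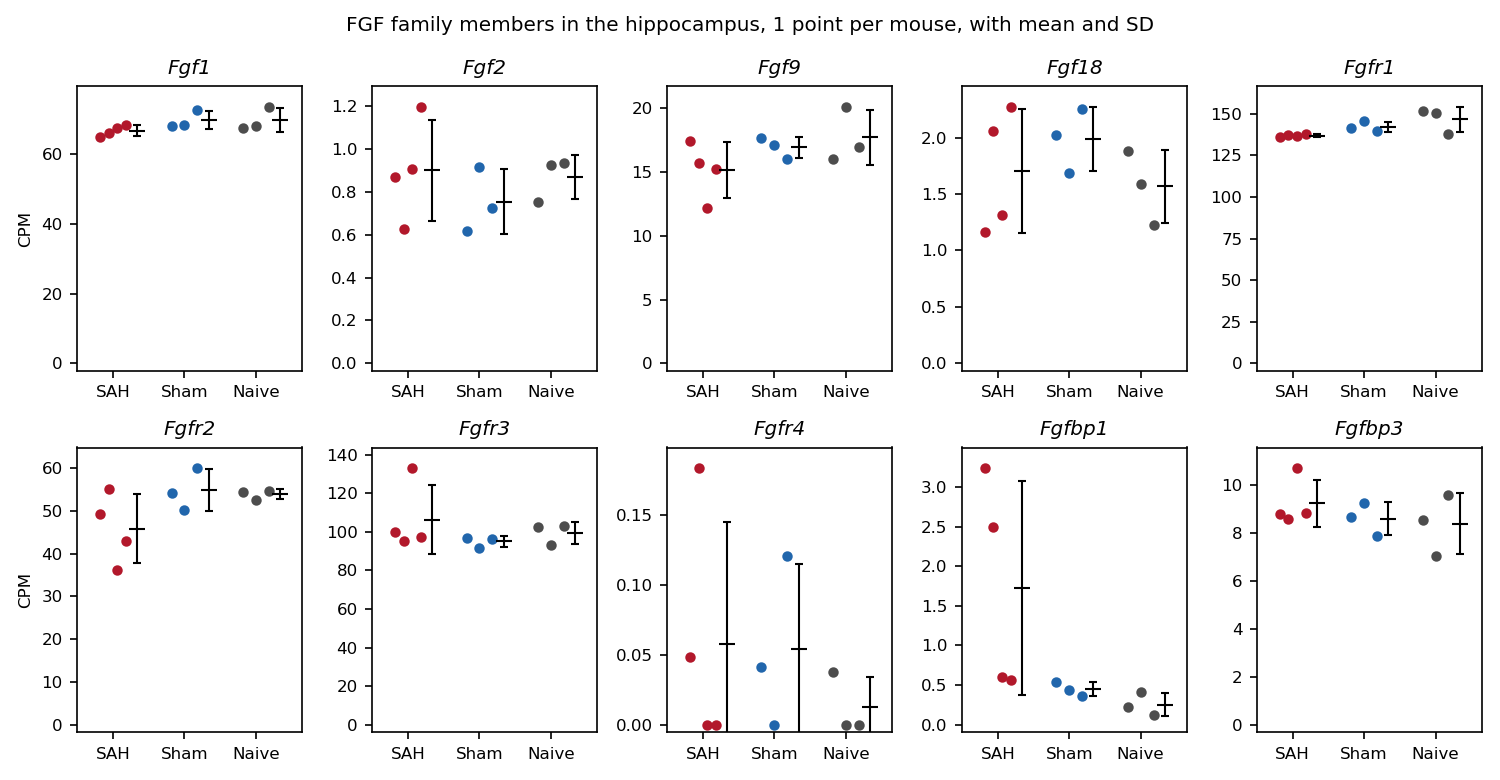
Each panel plots 1 gene, with CPM on the vertical axis and 1 point per mouse for the SAH (n = 4), Sham (n = 3) and Naive (n = 3) groups, and the bar is the group mean with its SD. Fgf1 and Fgfr1 are nearly flat, Fgfbp1 is high in SAH mice 1 and 2, and Fgfr3 has a single high point at 133.0 CPM in SAH mouse 3.

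Fgfbp1 (chromosome 5, 44370097 to 44373038 of mm9, minus strand, 3 exon blocks) encodes a secreted carrier that binds FGF ligands and frees them from heparan sulfate. Its counts in SAH mice 1 to 4 were 67, 68, 12 and 14, those in Sham mice 13, 12 and 9, and those in Naive mice 6, 8 and 3. All 4 SAH mice were above all 6 controls in CPM, an order that 2.82% of all genes showed, and the SAH mice split into a high and a low pair. SAH mouse 1 had 3.24 CPM (95% Poisson interval 2.51 to 4.11) and SAH mouse 2 had 2.50 CPM (1.94 to 3.17), both far over every other mouse. SAH mouse 3 had 0.606 CPM (0.313 to 1.06) and SAH mouse 4 had 0.559 CPM (0.306 to 0.939), whose intervals overlap that of the highest control, Sham mouse 5, at 0.536 CPM (0.286 to 0.917). These intervals cover counting error only.

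The fitted log2 difference of Fgfbp1 was 2.29 (SE 0.51, 95% interval 1.20 to 3.38) between SAH and control. It was 1.94 (0.63 to 3.26) against the Sham mice and 2.79 (1.29 to 4.28) against the Naive mice, and since these contrasts share the SAH mice they are not separate evidence. With each mouse left out in turn the difference lay between 1.84 and 2.59, the lowest without SAH mouse 1. Against Sham mice alone 0 members were past the threshold by edgeR, where 0.72% of 15134 genes were, with 2 at an unadjusted p under 0.05 (9.69% of all genes) and 1 by DESeq2 (225 genes higher and 77 lower). Against Naive mice 1 member, again Fgfbp1, was past it, where 2.99% were. Without Naive mouse 8, 9 or 10, Sham mouse 6 or SAH mouse 2 this last count was 0. Over all genes 307 were higher and 146 lower with all mice. Without these mice in turn they were 87 and 22, 108 and 41, 176 and 103, 225 and 97, and 443 and 240.

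The meningeal fibroblast markers moved with Fgfbp1. Their sum, over 11 genes of which 0 were at 0 counts in all mice, was 394.7, 369.6, 208.7 and 283.6 CPM in SAH mice 1 to 4, 190.5 to 196.4 CPM in Sham and 145.2 to 154.1 CPM in Naive mice. SAH mice 1 and 2 led in this sum as they did in Fgfbp1, while SAH mouse 4, with the third highest sum, had Fgfbp1 close to the Sham mice. The part of these cells in the Fgfbp1 difference was not tested. The choroid plexus sum ran otherwise, at 87.49 CPM in SAH mouse 1 and 201.1 CPM in SAH mouse 2. Without SAH mice 3 and 4 and Sham mouse 7 the log2 difference of Fgfbp1 was 3.02, a fit that keeps the high pair of SAH mice only.

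**Figure D2:**
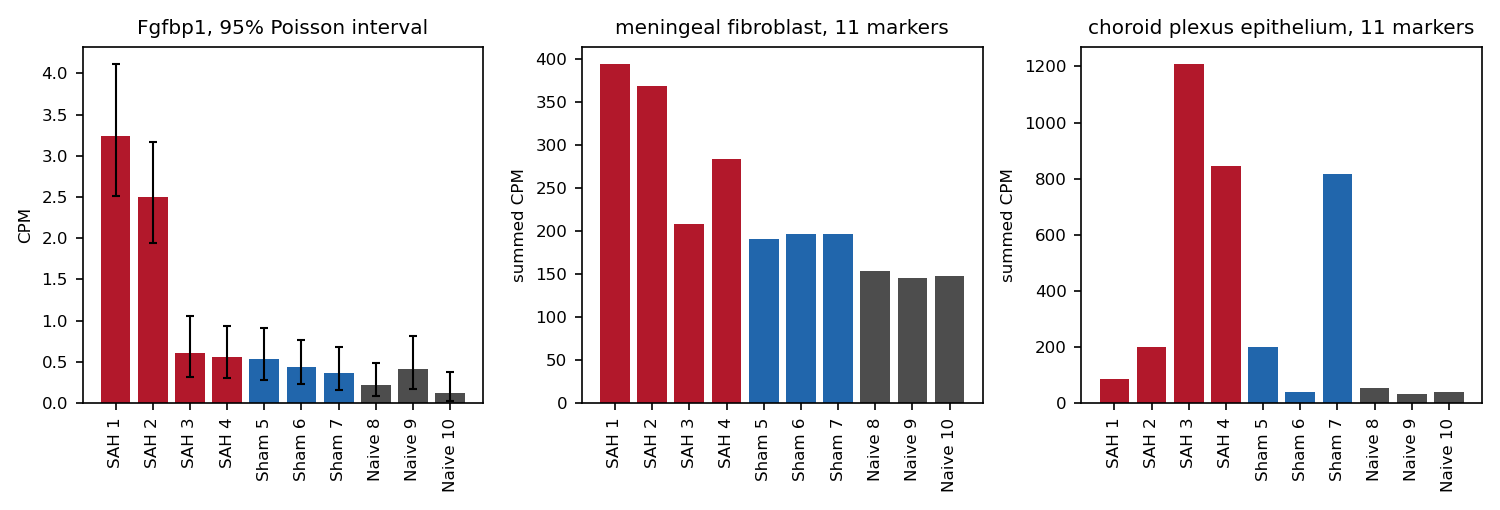
Bars give 1 mouse each, coloured by group: the Fgfbp1 level in CPM with its 95% Poisson interval at left, the summed CPM of 11 meningeal fibroblast markers in the middle and that of 11 choroid plexus markers at right. SAH mice 1 and 2 have the tallest bars at left (3.24 and 2.50 CPM) and in the middle (394.7 and 369.6 CPM), and SAH mouse 3 has the tallest at right.

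The tested genes whose log2 CPM was most like that of Fgfbp1 over the 10 mice were Kdelc2 (Pearson r = 0.942, Spearman rho = 0.806), which encodes a sugar transferase of the endoplasmic reticulum, Pf4 (r = 0.928, rho = 0.879), which encodes a platelet chemokine, and Slc26a7 (r = 0.921, rho = 0.733), which encodes an anion transporter. All 3 values include the step between SAH and control mice, and they describe these libraries only. Pf4 was at 0.505 to 1.36 CPM in SAH and 0.297 to 0.578 CPM in control mice. Slc26a7 was at 0.303 to 1.64 CPM in SAH and 0.212 to 0.515 CPM in control mice, and the ranges of the groups overlapped in all 3 genes.

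Fgfbp3 (chromosome 19, 36992040 to 36994089, minus strand) encodes the other carrier, which also binds FGF ligands. Its level was 8.80, 8.60, 10.71 and 8.83 CPM in SAH mice 1 to 4, 8.66, 9.26 and 7.88 CPM in Sham mice, and 8.53, 7.04 and 9.59 CPM in Naive mice. The groups overlapped, with SAH mouse 3 alone above all controls. The log2 difference was 0.11 (95% interval -0.10 to 0.33), and it was 0.04 without SAH mouse 3. Per kilobase of exon (RPKM) Fgfbp3 was the more abundant carrier in every mouse, at 4.01 to 6.10 against 0.102 to 2.60 for Fgfbp1.

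The promoters of the 2 carriers are shown because the carriers hold the member with the widest difference, Fgfbp1, beside its relative Fgfbp3. Each window is RefSeq sequence of build GRCm38.p6, minus strand, from 250 bases before the annotated start to 50 bases after it, and capitals mark a TATA box (TATAAA on either strand). Windows for 8 of the 10 members were found among 32851 promoters.
Fgfbp1, chr5:43981750-43982049: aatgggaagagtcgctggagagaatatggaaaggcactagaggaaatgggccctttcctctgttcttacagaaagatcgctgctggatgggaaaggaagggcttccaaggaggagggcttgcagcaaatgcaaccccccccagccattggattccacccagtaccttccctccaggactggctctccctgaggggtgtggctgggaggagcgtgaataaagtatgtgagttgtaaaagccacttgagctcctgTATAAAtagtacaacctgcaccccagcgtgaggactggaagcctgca
Fgfbp3, chr19:36919550-36919849: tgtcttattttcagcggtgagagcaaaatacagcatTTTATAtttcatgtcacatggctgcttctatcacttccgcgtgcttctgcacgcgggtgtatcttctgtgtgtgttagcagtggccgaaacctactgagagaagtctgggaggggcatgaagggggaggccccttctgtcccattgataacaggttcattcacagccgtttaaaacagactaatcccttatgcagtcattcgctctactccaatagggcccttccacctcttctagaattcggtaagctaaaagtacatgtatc
The TATA box of Fgfbp1 lies on the gene's own strand and begins 3 bases after the annotated start, which puts this start upstream of it. That of Fgfbp3 lies on the opposite strand at position -214. Of all promoters 13.6% hold TATAAA in a window of this length. AP-1 (TGANTCA, in 7.81% of promoters), the GC box (GGGCGG, in 35.7%) and the STAT motif (TTCNNNGAA, in 8.30%) were searched on both strands, with overlaps counted, and had no match in either window. The share of G and C was 53.3% for Fgfbp1 and 46.7% for Fgfbp3, with a median of 52.7% over all promoters. These matches describe letters only.

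Among the receptors, Fgfr1 (chromosome 8, 26629231 to 26686190) was the most abundant on average. Its level was 136.2, 137.5, 136.4 and 137.6 CPM in SAH mice 1 to 4, 141.6, 145.5 and 139.7 CPM in Sham mice, and 151.8, 150.5 and 137.9 CPM in Naive mice. Every SAH mouse was below every control, which 2.37% of all genes showed, yet the highest SAH mouse (137.6 CPM) and the lowest control (137.9 CPM) nearly met. The log2 difference was -0.08 (95% interval -0.16 to 0.002), with a range of -0.09 to -0.06 over the fits that leave out a mouse. Gm16159 overlaps Fgfr1 on the other strand, and the counting used strand.

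Fgfr2 (chromosome 7, 137305965 to 137410322, minus strand) was at 49.35, 55.08, 36.26 and 42.87 CPM in SAH mice 1 to 4. Sham mice had 54.29, 50.28 and 60.04 CPM and Naive mice 54.44, 52.64 and 54.74 CPM. SAH mice 3 and 4 were clearly below all controls and SAH mouse 1 just below them, while SAH mouse 2 was among them. The log2 difference of -0.24 became -0.15 without SAH mouse 3, -0.35 without SAH mouse 2, and -0.02 without SAH mice 3 and 4 and Sham mouse 7.

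The oligodendrocyte markers, 10 genes with 0 at 0, were lower in SAH along with Fgfr2. They summed to 6159, 5782, 5453 and 4831 CPM in SAH mice 1 to 4 and to 7064 to 9796 CPM in control mice. SAH mouse 2 was far below the controls in this sum with Fgfr2 at a control level, and Sham mouse 7 had both the highest sum and the highest Fgfr2. The part of these cells in the Fgfr2 values was not tested.

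Fgfr3 (chromosome 5, 34064373 to 34079717) was at 99.77, 95.11, 133.0 and 97.13 CPM in SAH mice 1 to 4, 96.79, 91.70 and 96.47 CPM in Sham mice, and 102.5, 92.94 and 103.2 CPM in Naive mice. SAH mouse 3 was far above the other 9 mice, which ran from 91.70 to 103.2 CPM. The log2 difference of 0.13 (95% interval -0.05 to 0.30) was 0.002 without that mouse. SAH mouse 3 also had the highest summed markers of astrocytes, 7268 CPM against 6308 to 6972 CPM in the other mice, and of reactive astrocytes, 1452 CPM against 453.4 to 1055 CPM. Of the 10 astrocyte markers 0 passed between SAH and control by edgeR, with 3 at an unadjusted p under 0.05 and 1 by DESeq2. What part these cells have in the Fgfr3 value of SAH mouse 3 was not tested.

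Fgfr4 (chromosome 13, 55254179 to 55270120) gave 1, 5, 0 and 0 counts in SAH mice 1 to 4, 1, 0 and 3 counts in Sham mice, and 1, 0 and 0 counts in Naive mice. The highest level was 0.184 CPM in SAH mouse 2 (95% Poisson interval 0.0597 to 0.429), and a count of 0 has an upper limit of 0.136 CPM in Sham mouse 6 on the same scale. The intervals of all 10 mice overlapped, and no difference was detectable at this depth.

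The make-up of receptor RNA was compared per length, as each receptor's share of the summed RPKM of the 4. In control mice Fgfr1 made up 47.1 ± 1.73%, Fgfr3 36.2 ± 1.29% and Fgfr2 16.7 ± 0.939% (SD, n = 6). In SAH mice the shares were 45.5 ± 2.26%, 40.1 ± 4.78% and 14.4 ± 2.90% (SD, n = 4). The order was Fgfr1, Fgfr3, Fgfr2 in 9 of the 10 mice. In SAH mouse 3 Fgfr3 led with 47.1%, over 42.3% for Fgfr1 and 10.6% for Fgfr2. The summed receptor RPKM was 57.48 to 64.14 in SAH and 59.20 to 63.70 in control mice, so the groups overlapped in the total.

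**Figure D3:**
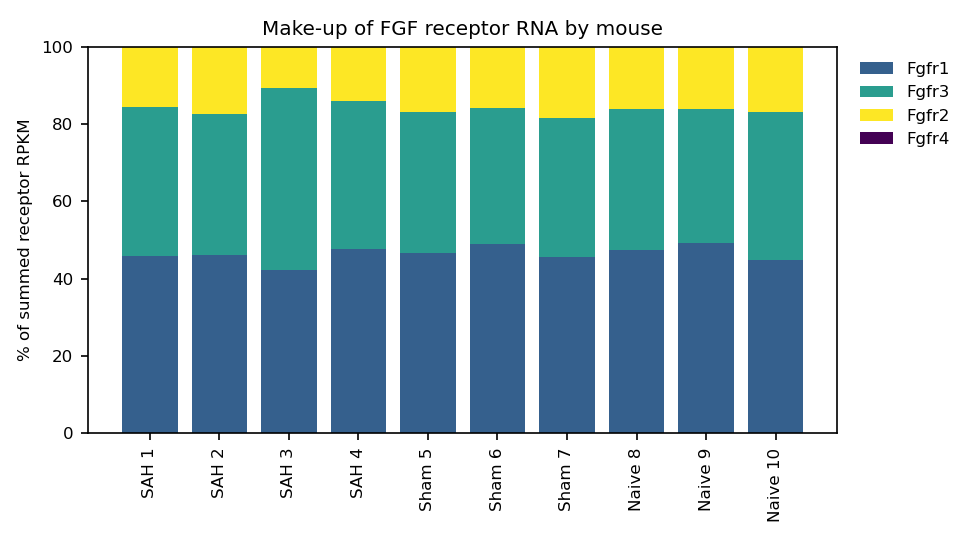
Each bar is 1 mouse and is divided by the share of each receptor in the summed receptor RPKM, in percent. Fgfr4 is too scarce to be seen, and SAH mouse 3 is the single mouse in which the Fgfr3 part (47.1%) is larger than the Fgfr1 part (42.3%).

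Among the ligands, Fgf1 (chromosome 18, 38998327 to 39078353), which binds all FGF receptors and has no signal peptide, differed little between groups and mice. It was at 65.06, 66.07, 67.57 and 68.36 CPM in SAH mice, 68.07, 68.32 and 72.71 CPM in Sham mice, and 67.48, 68.16 and 73.66 CPM in Naive mice. The groups overlapped, with a log2 difference of -0.06 (95% interval -0.15 to 0.02). It made up 74.0 ± 2.36% of the summed RPKM of the 4 ligands in SAH (SD, n = 4) and 73.3 ± 1.55% in control (SD, n = 6).

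Fgf9 (chromosome 14, 58691523 to 58731557), a ligand made by neurons and glia, was at 17.45, 15.74, 12.17 and 15.22 CPM in SAH mice, 17.66, 17.16 and 16.05 CPM in Sham mice, and 16.02, 20.15 and 17.01 CPM in Naive mice. SAH mouse 3 was the lowest of all, and SAH mouse 1 was inside the control range. The log2 difference was -0.19 (95% interval -0.39 to 0.01), and -0.10 without SAH mouse 3.

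Fgf2 (chromosome 3, 37247575 to 37303752), a mitogen of neural stem cells and astrocytes, gave 15 to 30 counts per mouse, or 0.63 to 1.20 CPM in SAH and 0.619 to 0.934 CPM in control mice. The groups overlapped, and the log2 difference of 0.15 had an interval from -0.33 to 0.62. It turned to -0.17 without SAH mice 3 and 4 and Sham mouse 7, so its sign rests on these libraries. The exons counted for Fgf2 spanned 695 bases and covered 44.9% of the exon bases that the GENCODE annotation of mm9 gives it, and reads from the rest were not counted.

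Fgf18 (chromosome 11, 33016978 to 33047400), a ligand best known from bone and lung, was at 1.16, 2.06, 1.31 and 2.28 CPM in SAH mice, 2.02, 1.69 and 2.25 CPM in Sham mice, and 1.88, 1.59 and 1.23 CPM in Naive mice. SAH mice held both ends of the range, and the groups overlapped. The log2 difference was -0.05 (95% interval -0.52 to 0.43), and its sign was not fixed, at -0.21 to 0.09 with a mouse left out, -0.20 with Sham mice alone as control and 0.13 with Naive mice alone.

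By mean RPKM over the 10 mice the members ran from Fgfr1 (28.2) over Fgfr3 (22.9), Fgf1 (17.5), Fgfr2 (9.54), Fgfbp3 (5.01), Fgf9 (3.98), Fgf2 (1.22), Fgf18 (1.10) and Fgfbp1 (0.722) to Fgfr4 (0.0137). Of 19538 genes with any count, 86.0% were below Fgfr1 and 31.8% below Fgfbp1. Neighbours in this order whose ranges over mice overlapped were Fgfr1 and Fgfr3, Fgfbp3 and Fgf9, Fgf2 and Fgf18, and Fgf18 and Fgfbp1. The ranges of Fgf1 (16.6 to 18.8) and Fgfr2 (6.78 to 11.2) were apart from those of all other members, as was that of Fgfr4 (0 to 0.0584). In SAH mice 1 and 2 Fgfbp1 was above Fgf2 and Fgf18, and in the 8 other mice it was below both.

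Surgery without hemorrhage was compared between Sham and Naive mice. The SAH mice enter this contrast through the filter on low counts and the shared estimate of the spread, and in a fit of the Sham and Naive mice alone 8 members were left, without Fgfbp1, and 0 passed. Of the 9 members 0 passed the test by edgeR, 0 had an unadjusted p under 0.05 and 0 were called by DESeq2, where edgeR called 0.00661% of 15134 genes. The adjusted p was 1.00 for each of them. Fgfbp1 had the widest difference, 0.446 ± 0.0873 CPM (SD, n = 3) in Sham against 0.255 CPM in Naive mice on average, or 0.84 on the log2 scale with a 95% interval from -1.0 to 2.69. A difference of this size in either direction is inside that interval. For Fgf1 the interval was -0.12 to 0.12, for Fgfr1 -0.15 to 0.06, for Fgfr3 -0.30 to 0.16 and for Fgfr2 -0.24 to 0.28.

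**Figure D4:**
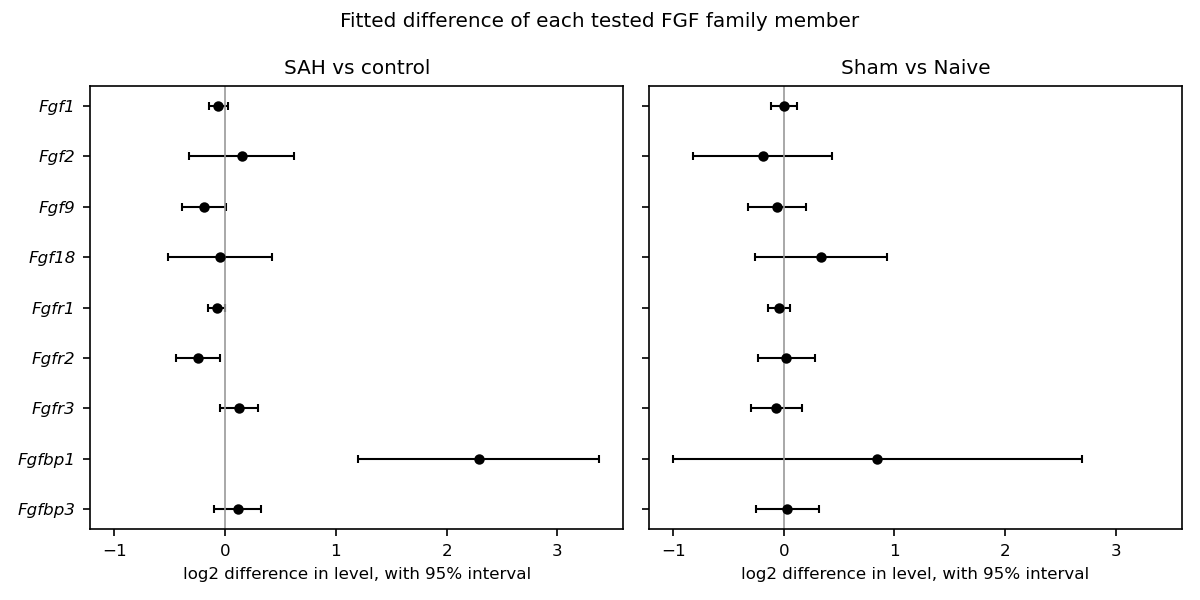
Points give the fitted log2 difference of each of the 9 fitted members, SAH minus control at left and Sham minus Naive at right, with the 95% interval as a bar. Fgfbp1 at left (2.29) is far from the other members, and every interval at right spans 0.

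Other genes of the FGF system were taken from 7 lists written from general knowledge of the pathway, 74 genes in all. The lists were chosen with earlier results of these data known, so SAH counts and p-values of these genes are a description too. Enough expression to be tested was found for 63. Of the 63, 2 rose (Shc1 and Ndst4) and 3 fell (Spry4, Dusp6 and Gab1) between SAH and control, by edgeR's quasi-likelihood test with Benjamini-Hochberg adjustment over all genes, where 3.13% of all genes rose and 1.54% fell. At an unadjusted p under 0.05 there were 16 of the 63, beside 17.0% of all genes. The median log2 difference of the 63 was -0.02 and their median size 0.099, beside 0.081 over all genes. Against Sham mice alone 0 of the 63 passed by edgeR, with 7 at an unadjusted p under 0.05 (9.69% of all genes) and 1 by DESeq2. Against Naive mice 1 passed, Shc1, where 2.99% of all genes did, with 13 at an unadjusted p under 0.05 (14.8% of all genes) and 3 by DESeq2, 2 higher and 1 lower. Between Sham and Naive mice 0 passed, with 0 at an unadjusted p under 0.05 and 0 by DESeq2.

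The feedback inhibitors and target genes can be switched on by an active receptor, whose activity was not measured here. Of the 12 listed 11 were tested, 2 fell, 0 rose and 9 did not pass, beside 1.54% of all genes that fell. The log2 difference was negative in 9 of the 11, with a median of -0.08. Spry4, a Sprouty inhibitor of receptor tyrosine kinase signaling, was at 14.31, 15.63, 9.29 and 14.54 CPM in SAH mice 1 to 4 and 16.08 to 21.80 CPM in control mice. All SAH mice were below all controls, which 2.37% of all genes showed, and Spry4 fell by 0.45 on the log2 scale (SE 0.12, adjusted p = 0.0791, edgeR). Dusp6, a phosphatase that shuts off ERK, was at 68.88, 69.16, 41.76 and 69.76 CPM in SAH mice and 73.70 to 86.78 CPM in control mice. Dusp6 fell by 0.40 on the log2 scale (SE 0.11, adjusted p = 0.0868, edgeR), again with no overlap, and SAH mouse 3 was much the lowest.

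Both calls were close to the threshold. Spry4 passed in 4 and Dusp6 in 3 of the 10 fits with a mouse left out, and the log2 difference of Spry4 ranged from -0.53 to -0.31 and that of Dusp6 from -0.46 to -0.25. Without SAH mouse 3, Dusp6 passed with a difference of -0.25 (adjusted p = 0.0107, edgeR) and Spry4 with -0.31 (adjusted p = 0.0871). Without SAH mouse 4 neither passed (adjusted p = 0.125 for Dusp6 and 0.141 for Spry4, edgeR). Without SAH mice 3 and 4 and Sham mouse 7, Spry4 did not pass, at -0.27 (adjusted p = 0.328, edgeR), and Dusp6 did, at -0.24 (adjusted p = 0.0543). The 7 markers of oligodendrocyte precursors, of which 0 passed by edgeR (3 at an unadjusted p under 0.05, 2 lower by DESeq2) and 0 were at 0, summed to 239.1 to 285.5 CPM in SAH and 289.8 to 328.1 CPM in control mice, with SAH mouse 3 the lowest. Their part in the lower Spry4 and Dusp6 was not tested. The 3 ETS factors of the list did not pass, with a log2 difference of 0.01 for Etv1, 0.05 for Etv4 and -0.11 for Etv5 (adjusted p = 0.946, 0.832 and 0.223, edgeR).

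Of the 10 receptor adaptors and effectors, 1 rose, 1 fell and 8 did not pass. Shc1, an adaptor that links receptor tyrosine kinases to RAS, was at 8.89, 9.74, 8.23 and 9.27 CPM in SAH mice and 5.91 to 7.64 CPM in control mice. Shc1 rose by 0.38 on the log2 scale (SE 0.086, adjusted p = 0.0333, edgeR). All SAH mice were above all controls, which 2.82% of all genes showed. Shc1 passed in 9 of 10 fits with a mouse left out, the exception being SAH mouse 4 (adjusted p = 0.107, edgeR). It also passed without SAH mice 3 and 4 and Sham mouse 7 (0.45, adjusted p = 0.0433). Gab1, a docking protein for the phosphatase SHP2 and PI3 kinase, was at 34.46, 35.52, 28.23 and 38.12 CPM in SAH mice and 38.90 to 43.91 CPM in control mice. It fell by 0.24 on the log2 scale (SE 0.071, adjusted p = 0.0992, edgeR), passed in 2 of those 10 fits, and was at -0.16 without SAH mouse 3 (adjusted p = 0.154). Without SAH mice 3 and 4 and Sham mouse 7 it did not pass either, at -0.18 (adjusted p = 0.154, edgeR).

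Of the 15 heparan sulfate synthesis and editing enzymes, 1 rose and 14 did not pass. Ndst4, which replaces acetyl groups of the chain with sulfate, was at 34.17, 33.82, 37.07 and 40.95 CPM in SAH mice and 26.09 to 32.11 CPM in control mice. Every SAH mouse was above every control, which 2.82% of all genes showed, and Ndst4 rose by 0.31 on the log2 scale (SE 0.070, adjusted p = 0.0318, edgeR). It did not pass without SAH mouse 4 (0.25, adjusted p = 0.124) or without SAH mice 3 and 4 and Sham mouse 7 (0.22, adjusted p = 0.229). The list ran from -0.19 for Hs3st1, a sulfotransferase, to 0.53 for Hpse, the heparanase that cuts the chain, with 16 to 20 counts of Hpse in SAH and 5 to 16 in control mice.

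In each of the other 4 lists 0 genes passed by edgeR and 0 by DESeq2. The 12 heparan sulfate proteoglycan cores ran from -0.17 (Gpc2) to 0.67 (Sdc1, 1.49 ± 0.437 CPM in SAH, SD, n = 4, and 0.914 ± 0.325 CPM in control, SD, n = 6), with 9 positive and 3 at an unadjusted p under 0.05. The 4 intracellular FGF homologous factors, which bind sodium channels and are not secreted, ran from -0.16 (Fgf11) to 0.11 (Fgf14), with 1 at an unadjusted p under 0.05. Of 14 other secreted ligands 5 were tested, from -0.28 (Fgf7) to 0.21 (Fgf16), with 0 at an unadjusted p under 0.05. The other 9 ligands had at most 16 counts in any mouse, in Fgf23.

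Of 7 co-receptors and receptor-interacting proteins 6 were tested, from -0.23 (Flrt1) to 0.58 (Kl), with 2 at an unadjusted p under 0.05. Kl encodes Klotho, the co-receptor for FGF23, and is abundant in choroid plexus. Its level was 26.7, 29.9, 60.7 and 54.2 CPM in SAH mice 1 to 4, 26.0, 26.8 and 49.8 CPM in Sham mice, and 24.6, 22.5 and 22.1 CPM in Naive mice. The 3 mice with high Kl, SAH mice 3 and 4 and Sham mouse 7, were the same 3 with a high choroid plexus marker sum. What part that tissue has in the Kl level was not tested.

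**Figure D5:**
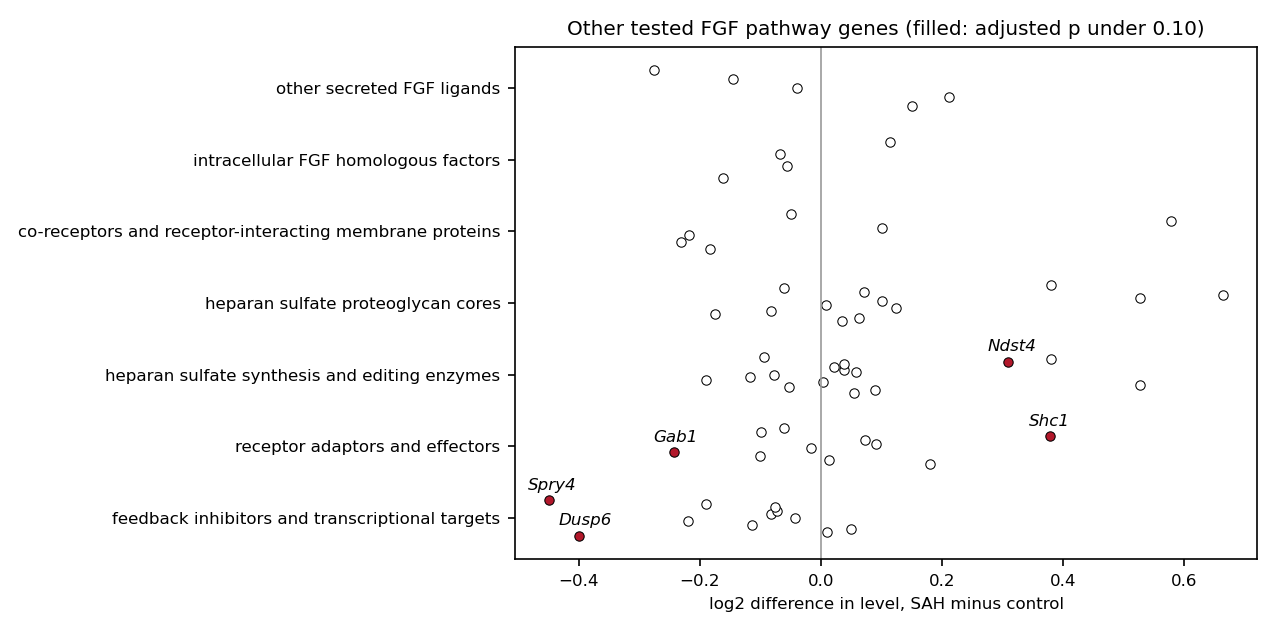
Each point is 1 tested pathway gene, placed by its log2 difference (SAH minus control) in the row of its list, and filled where the adjusted p was under 0.10. Spry4 (-0.45) and Dusp6 (-0.40) are at the lower end, Shc1 (0.38) and Ndst4 (0.31) at the higher side, and most of the 63 points are close to 0.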

How the data were processed

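Hippocampal RNA of 10 mice (SAH, n = 4; Sham, n = 3; Naive, n = 3; 1 ribosome-depleted, stranded library each) was analysed from the counts that the authors deposited, whole numbers of read pairs for each gene name, not normalized. Per the labels and methods, the authors aligned the pairs to mm9 with STAR at default settings and counted with featureCounts 1.6.2, by strand, over UCSC exons. Reads that matched several places were left out, so copies of near-identical genes are undercounted.

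CPM after TMM and RPKM (CPM per kilobase of the files' exon length) were computed here. edgeR 4.0.16 (R 4.3.3) was used with filterByExpr (minimum count 10, minimum total 15), quasi-likelihood tests and Benjamini-Hochberg adjustment over all genes, with a threshold of 0.10. SAH was compared with control (Sham and Naive together) in a fit of 2 groups, and the other contrasts came from a fit of 3 groups. The standard error is the log2 difference divided by the square root of F. Tests run over genes were tested on simulated data, for SAH against control. The changes planted there were larger than those of the named pathway genes, so nothing is drawn from it for them. DESeq2 1.42.0 was an alternative, as were other scalings, filters and controls, a robust fit and each mouse left out. No 2 libraries of the same group were alike enough to be duplicates, and pairs across groups were not compared. The mice are separate animals. The members, the 7 pathway lists and the 15 cell type lists were chosen with earlier results of these data known. Named genes are the 10 members, pathway genes past the threshold or at the ends of a list, and the 3 genes most like Fgfbp1. Python 3.11.15 was used for tables.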

Additional observations from a re-analysis of the deposited data

Results flagged for a closer look

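In each group of 4 or more mice, the highest and lowest values of the members and the named pathway genes were compared with the rest by Dixon's ratio, in 28 tests. Chance alone flags about 5% of such tests. There were 3 flags, all in SAH mouse 3 within the SAH group: Fgfr3 at 133.0 CPM, with the other SAH mice at 95.11 to 99.77 CPM, Fgfbp3 at 10.71 CPM, with the others at 8.60 to 8.83 CPM, and Dusp6 at 41.76 CPM, with the others at 68.88 to 69.76 CPM. The same mouse had the highest choroid plexus (1209 CPM), astrocyte (7268 CPM) and reactive astrocyte (1452 CPM) marker sums of all 10 mice, whose part in these values was not tested. Fgfbp1 was not flagged, since its SAH mice fell into pairs.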

How the results depend on the processing

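No paired analysis was possible because each animal number occurs in a single mouse. No result turned its sign while past the threshold. Between SAH and control, 1 member was called, and 0 were with at least 10 counts required in every mouse (which removes Fgfbp1), with Sham mice alone as control or with Naive mice alone as control. Over all genes 470 were higher and 231 lower of 14993 in the main fit. Under these alternatives in turn they were 427 and 222 of 14068, 12 and 0 of 15051, and 201 and 81 of 14954. The log2 difference of Fgfbp1 was 1.94 with Sham mice alone and 2.79 with Naive mice alone. With 1 mouse left out, 1 to 2 members were called. Of the pathway genes 5 were called. There were 2 at a threshold of 0.05, 3 with library size alone, 2 in the 3-group fit with Sham and Naive averaged, 0 with Sham mice alone, 0 with Naive mice alone, 2 without SAH mice 3 and 4 and Sham mouse 7, and 1 to 8 with 1 mouse left out. The 8 came without SAH mouse 1 and the 1 without SAH mouse 4. Over all genes 277 were higher and 92 lower of 14993 at the threshold of 0.05, and 488 and 198 with library size alone. They were 454 and 203 of 15134 in the 3-group fit, and 257 and 73 of 15123 without SAH mice 3 and 4 and Sham mouse 7. Without SAH mouse 1 they were 596 and 378 of 15123, and without SAH mouse 4 they were 223 and 85 of 15044. Against Sham, 0 members were called and 1 by DESeq2, and 0 to 1 with 1 mouse left out. Against Naive, 1 was called, and 0 at a threshold of 0.05, 0 with at least 10 counts in every mouse and 0 with only the mice of the 2 groups, and 0 to 1 with 1 mouse left out. Over all genes 307 were higher and 146 lower of 15134 against Naive. They were 186 and 74 at the threshold of 0.05, 250 and 129 of 14068 with at least 10 counts, and 201 and 81 of 14954 with the 2 groups only. Between Sham and Naive mice 0 members and 0 pathway genes were called under every alternative. The log2 difference of Fgfbp1 between SAH and control was positive under every alternative that could fit it, from 1.84 to 3.02. The exclusion of SAH mice 3 and 4 and Sham mouse 7 was chosen after seeing the data. Fgf2, Fgf18 and Fgfr4 rest on few counts per mouse, as does Fgfbp1 outside SAH mice 1 and 2. The causes of the shifts were not tested.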
